A study of Mus musculus with 9 samples.

Results

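Most mitochondrial proteins are encoded in the nucleus, made in the cytosol and imported. The 38 genes described here encode the import machinery, and were taken by name from the rows of the count files whose Ensembl identifiers carry those symbols. All 38 were found among 49315 genes listed, and all 38 passed the filter on low counts that left 14747 genes to test. They were the outer membrane translocase TOM (8 genes), the cytosolic co-chaperone Tomm34, the sorting and assembly machinery SAM (3), the small Tim chaperones of the intermembrane space (6) and the oxidative folding pair of that space (2). The inner membrane and matrix were covered by the carrier translocase TIM22 (3), the presequence translocase TIM23 (5), its import motor PAM (6), the processing peptidase (2) and the matrix chaperonin (2).

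Polyadenylated RNA was sequenced from brown adipose tissue of male C57Bl/6J mice with diet-induced obesity, on a diet with 60% fat until they weighed about 50 g. They were 14 weeks old and acclimated for 3 weeks, were housed singly, and were not at a thermoneutral temperature. For 28 days each mouse received a daily subcutaneous injection of vehicle (4 mice) or of cotadutide (5 mice), a peptide that activates both the receptor for glucagon and that for the incretin GLP-1. Both groups shared strain, sex, diet and housing, no lean group was analysed here, and the dose is not given in the labels. Library totals ran from 16.1 to 25.1 M counts in vehicle and from 10.8 to 19.5 M counts in cotadutide mice.

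Proteins bound for mitochondria enter through the TOM pore. Beta-barrel proteins are then passed to SAM, precursors with a presequence to TIM23 and the Hspa9 motor, and carrier proteins to the small Tims and TIM22. Brown fat is rich in mitochondria, and its uncoupling protein Ucp1 is a carrier protein made without a cleaved presequence. Levels below are CPM, counts brought to a common library total with edgeR's scaling factors, and errors of levels are SD with n = 4 vehicle and n = 5 cotadutide mice. Fold changes are cotadutide against vehicle from edgeR's quasi-likelihood test, and "rose" means a Benjamini-Hochberg adjusted p under 0.05 over all genes tested.

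RefSeq windows of 300 bases (250 before to 50 after a start, build GRCm38.p6) were matched for 34 of the 38 members, as 37 windows (not for Tomm7, Tomm40l, Timm21 and Hspa9). The 3 printed here run 5′ to 3′ on the gene's strand, since Hspe1 and Hspd1 run in opposite directions from nearly the same DNA, and Timm50 and Mtx1 had the smallest p-values of the set. Capitals mark matches to CCGGAAG (the ETS core), AAGATGGCG (YY1) or TTCNNGAA (heat shock element repeats) on either strand. ETS matches can overlap a heat shock match, as in Hspe1.
Hspe1, chr1:55087898-55088197, plus strand: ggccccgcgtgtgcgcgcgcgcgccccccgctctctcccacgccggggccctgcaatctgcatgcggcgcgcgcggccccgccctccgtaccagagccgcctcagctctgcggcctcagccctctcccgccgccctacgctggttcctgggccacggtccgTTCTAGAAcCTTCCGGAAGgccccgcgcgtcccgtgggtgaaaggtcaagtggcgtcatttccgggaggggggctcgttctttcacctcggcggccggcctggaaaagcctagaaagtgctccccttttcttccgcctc
Timm50, chr7:28311997-28312296, minus strand: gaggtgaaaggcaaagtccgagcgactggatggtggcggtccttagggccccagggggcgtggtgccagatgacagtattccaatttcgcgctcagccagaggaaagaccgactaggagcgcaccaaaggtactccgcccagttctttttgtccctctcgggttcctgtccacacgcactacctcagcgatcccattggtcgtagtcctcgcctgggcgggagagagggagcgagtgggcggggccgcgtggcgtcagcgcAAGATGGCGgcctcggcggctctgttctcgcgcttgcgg
Mtx1, chr3:89213858-89214157, minus strand: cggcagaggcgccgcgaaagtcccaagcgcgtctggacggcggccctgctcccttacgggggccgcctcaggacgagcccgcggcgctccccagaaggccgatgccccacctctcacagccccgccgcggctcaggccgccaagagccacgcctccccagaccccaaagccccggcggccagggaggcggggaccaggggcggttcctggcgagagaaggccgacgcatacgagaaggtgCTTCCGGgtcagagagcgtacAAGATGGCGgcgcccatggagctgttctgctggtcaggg

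The Hspe1 window shared 285 bases with 1 of the 2 windows of Hspd1, on chromosome 1 from 55087898 to 55088182. In the Hspe1 window the heat shock letters began at positions -89 and -79 from the start. The YY1 letters began at position 12 after the start in both Timm50 and Mtx1, and were found in 2 of 37 member windows (5.41%) against 2.73% of the windows of tested genes and 1.4% of all 32851 windows. ETS letters were found in 43.2% of the member windows, against 8.86% of all windows and 16.2% of the windows of tested genes. Heat shock letters were found in 21.6% of the member windows, against 8.52% of all windows and 7.12% of those of tested genes. The Hspe1 window and 1 Hspd1 window hold the same ETS and heat shock letters, and the Tomm34 windows share an ETS match. These shares therefore count some DNA in more than 1 window. The NRF1 motif, searched with one of its central bases left free, was in 13.5% of the member windows, 9.27% of those of tested genes and 4.6% of all windows (Chchd4, Hspd1, Pam16, Timm8b and Tomm20). With that base fixed as T, a form tried first, it was in 0 member windows and in 0.971% of all windows, whereas the YY1 letters followed by GC were in the same 2 member windows. The ERR letters TCAAGGTCA were in that of Timm8b alone, against 0.423% of all windows. Of the 15 members with ETS letters, 7 rose and 8 did not pass the test, so the letters were present on both sides of the call. Such a match describes the DNA, and no binding was measured.

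Under cotadutide, 18 of the 38 import mRNAs rose and 0 fell. Of the members 47.4% were called higher, and the background over all genes tested was 9.31% higher and 9.34% lower (18.7% either way). By limma-voom, with a background of 10.2% higher, the members' counts were also 18 higher and 0 lower. By DESeq2, where 1674 of all 14747 genes tested were higher and 1718 lower, the members' counts were the same. In these fits 0 members had a lower level at an unadjusted p under 0.05. The median fold of the members was 1.22 (log2 fold change 0.28), against 1.00 (0.00) over all genes tested, and 33 of 38 had a positive log2 fold change. For 9 members each cotadutide mouse lay above each vehicle mouse, with a background of 8.06% of the genes tested, and for 0 members each lay below (background 7.79%). Summed over the 38 genes, the level was 4854 to 5768 CPM in vehicle and 5920 to 7186 CPM in cotadutide mice.

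**Figure D1:**
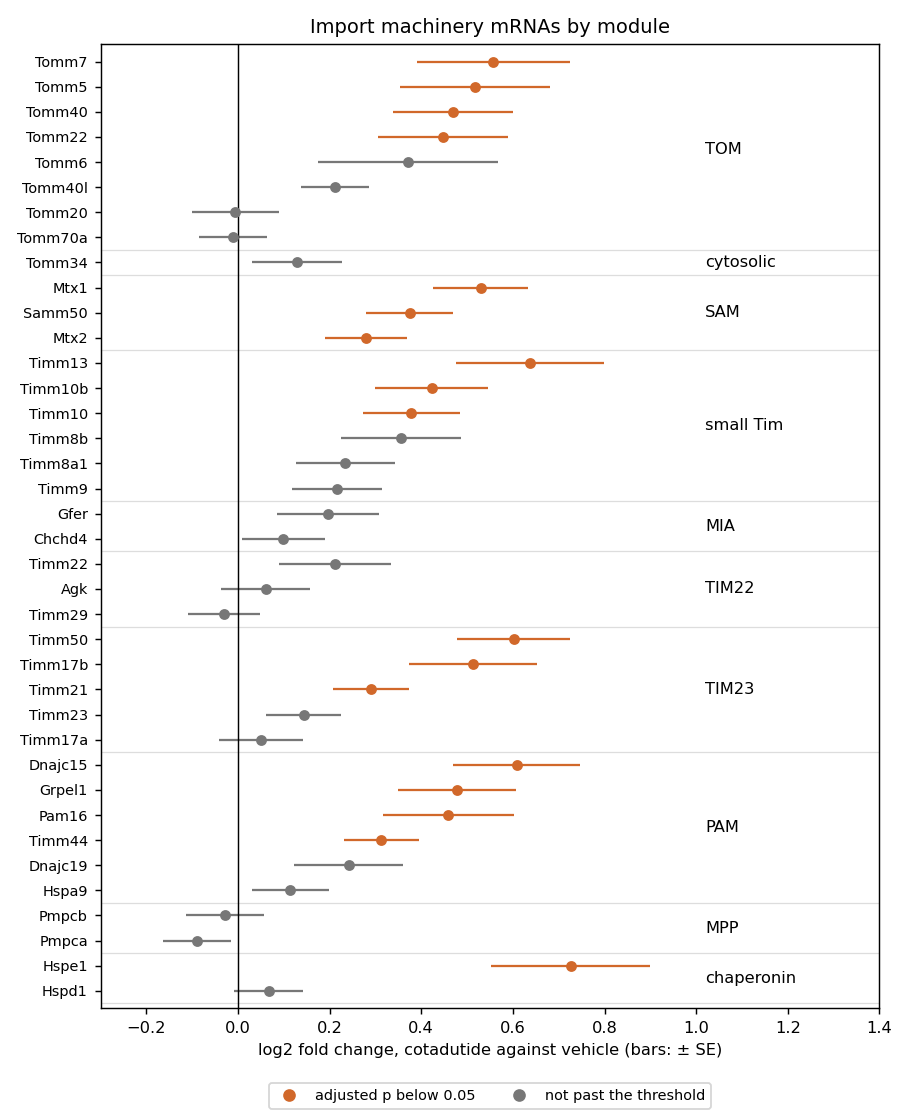
Log2 fold changes of the 38 import mRNAs, cotadutide against vehicle, with bars of ± 1 SE, ordered within each module; orange points passed the adjusted p threshold. The 3 SAM genes passed, and no gene of the TIM22, MIA or processing peptidase (MPP) modules did.

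The number of calls rested on single mice. It was 0 without vehicle mouse 1, 0 without vehicle mouse 2, 1 without vehicle mouse 3, 4 without cotadutide mouse 2, 3 without cotadutide mouse 3 and 10 without cotadutide mouse 5. In those 6 fits 18 to 20 members were higher at an unadjusted p under 0.05 and 0 lower. Of all 14590 to 14923 genes tested there, 4010 to 5087 had such a p in either direction. Across all 9 such fits the members' median log2 fold change stayed between 0.21 and 0.35. Over all genes tested 47, 42, 265, 465, 546 and 1009 rose in those 6 fits, in the order given, against 1373 with all mice. Mtx1 kept its call in 7 of the 9 fits, Timm50 and Dnajc15 in 6, and Samm50 in 5. Without vehicle mouse 4, 21 members rose, and so did 2116 of all 14846 genes tested in that fit. Cotadutide mouse 2 had the highest cotadutide level of 28 members.

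**Figure D2:**
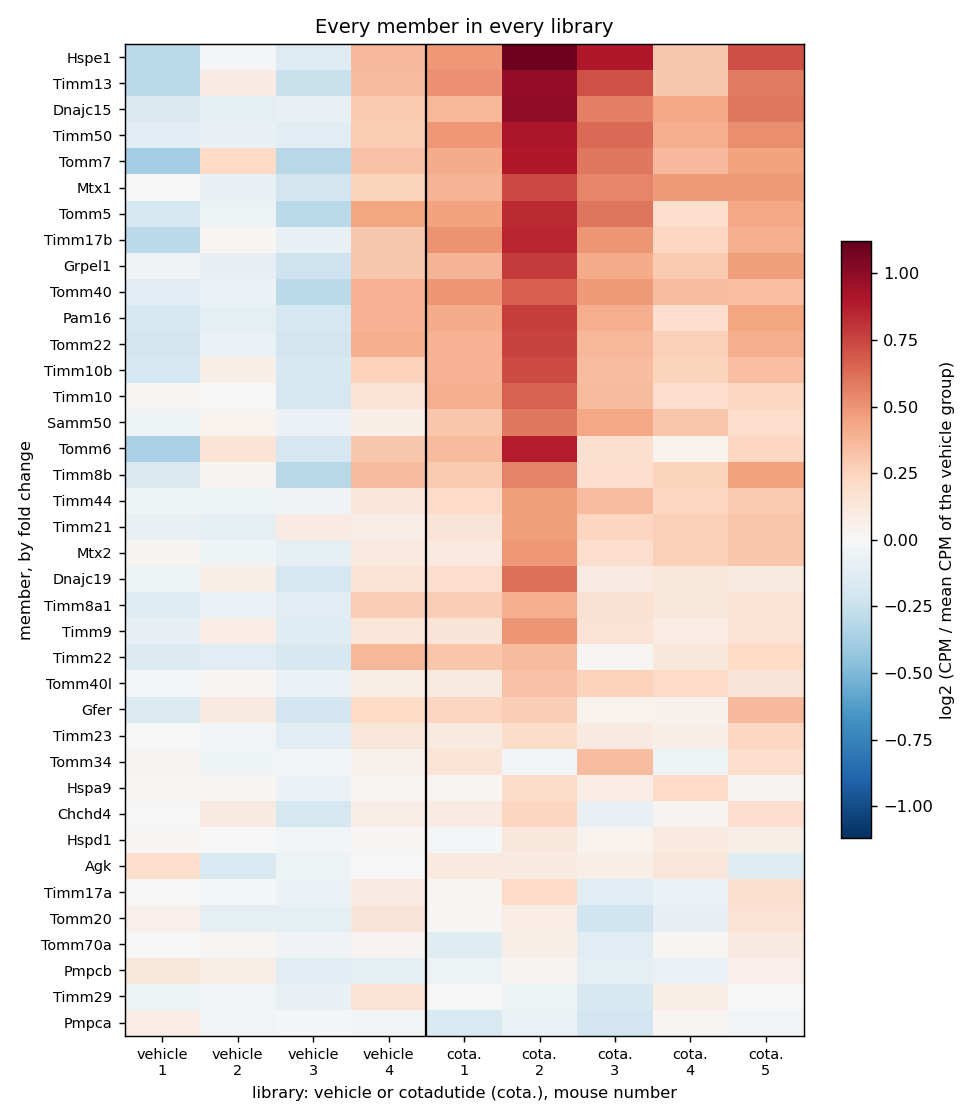
Level of each member in each library as log2 of CPM over the vehicle mean, from blue (lower) to red (higher), with members ordered by fold change and a line between the groups. Values run from -0.38 to 1.09; cotadutide mouse 2 is the reddest column, and vehicle mouse 4 is red beside the other vehicle mice.

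Marker levels of other cell types differed between the same groups. The 18 skeletal muscle markers summed to 25670 to 54080 CPM in vehicle and 5923 to 21980 CPM in cotadutide mice, 9 of the 18 fell, and 0 were without counts. The 10 macrophage markers summed to 354 to 590 CPM and 215 to 452 CPM, and 6 fell. Of 6 fibroblast markers 0 passed, with all 6 lower in the cotadutide group on average, of 5 erythroid markers 0 passed, of 6 endothelial markers 1 rose (Emcn), and of 8 lymphocyte markers 3 were tested and 0 passed. The lymphocyte markers summed to 36.8 CPM in cotadutide mouse 3, without which 3 members rose, and to 2.63 to 4.43 CPM in the other 8 libraries. The 10 brown adipocyte markers, which check the labelled tissue, were all detected, led by Ucp1 at 4781 ± 961 and 5886 ± 759 CPM (edgeR adjusted p = 0.159). Among them 3 rose (Cidea, Cox7a1 and Cox8b), and all 10 had a positive log2 fold change, with a median of 0.36 beside 0.28 for the members. They summed to 7883 to 11830 CPM in vehicle and 11380 to 16590 CPM in cotadutide mice, and their part in the members' differences was not tested. With the mean log2 level of the muscle markers as a covariate edgeR called 0 members and 0 genes in all, with 2183 genes at an unadjusted p under 0.05. There the members' median log2 fold change was 0.32, and 14 members were higher at an unadjusted p under 0.05. Vehicle mouse 4 had the highest muscle score of the 9 libraries (11.05, a mean log2 CPM) and the highest vehicle level of 33 members, and the score of each vehicle mouse was above that of each cotadutide mouse. The part of the macrophage and lymphocyte markers in the members' differences was not tested. In bulk tissue, fewer cells of a type and less RNA per cell cannot be told apart.

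In the TOM complex, 4 of 8 genes rose: the pore Tomm40, the small subunits Tomm5 and Tomm7, and the central receptor Tomm22. Tomm40 stood at 89.9, 93.5, 79.8 and 127.9 CPM in vehicle mice 1 to 4, and at 137.5, 155.5, 136, 124.5 and 123.2 CPM in cotadutide mice 1 to 5. The groups overlapped through vehicle mouse 4 alone (1.38-fold, log2 value 0.47 with SE 0.13, edgeR adjusted p = 0.0323). Tomm7, which helps the complex assemble, was at 82.9, 125.7, 87.1 and 135 CPM in vehicle and 143, 201, 162, 139 and 147 CPM in cotadutide mice, without overlap (1.47-fold, SE of log2 0.17, edgeR adjusted p = 0.041). Tomm5 rose 1.43-fold and Tomm22 1.36-fold, with adjusted p of 0.0485 and 0.0479 by edgeR, close to the threshold. The receptors that first bind precursors did not pass: Tomm20, for presequences, was at 93.0 ± 8.08 and 92.6 ± 9.55 CPM, and Tomm70a, for carriers, at 84.2 ± 1.79 and 83.6 ± 6.24 CPM. Their log2 fold changes were -0.01 (SE 0.09) and -0.01 (SE 0.07). Tomm6, another small subunit, was low at 5.10 ± 1.06 and 6.58 ± 1.62 CPM (1.29-fold, edgeR adjusted p = 0.2). Its exons overlap those of Gm21981 on the same strand and of Tomm6os and Usp49 on the other, so reads there may have been assigned elsewhere or left uncounted. Tomm40l, a paralogue of the pore, was at 27.7, 28.3, 26.6 and 29.4 CPM against 30.0, 35.2, 33.4, 32.6 and 30.9 CPM, without overlap but short of the threshold (1.16-fold, edgeR adjusted p = 0.0657). The cytosolic Tomm34, which holds precursors on their way, was at 14.9, 14.1, 14.3 and 15.1 CPM against 16.2, 14.3, 18.5, 14.0 and 16.8 CPM (edgeR adjusted p = 0.368).

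All 3 SAM genes rose. Samm50, the barrel that inserts other barrels into the outer membrane, was at 319, 339, 315 and 346 CPM in vehicle and at 409, 497, 445, 408 and 378 CPM in cotadutide mice. Each cotadutide mouse was above each vehicle mouse (1.30-fold, 0.37 ± 0.09 SE on the log2 scale, edgeR adjusted p = 0.0246). Mtx1, a metaxin of the same complex, was at 43.7, 41.0, 37.6 and 51.8 CPM against 56.6, 72.8, 63.6, 60.6 and 60.6 CPM, again without overlap. It had the smallest p-value of the 38 (1.44-fold, log2 value 0.53 with SE 0.10, edgeR adjusted p = 0.0159). Its exons in the files (chromosome 3 from 89209081 to 89227088) overlap exons of Thbs3 on the other strand, and without a stated strand setting reads of both cannot be told apart there. Mtx2, its partner, rose 1.21-fold (101 ± 6.41 against 123 ± 12.3 CPM, edgeR adjusted p = 0.0495).

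The small Tims are hexameric chaperones that guide hydrophobic carriers across the intermembrane space, and 3 of 6 rose. Timm13, which pairs with the Timm8 proteins, was at 102, 133, 105 and 159.8 CPM in vehicle and 178, 247, 205, 154 and 187 CPM in cotadutide mice. Cotadutide mouse 4 lay below vehicle mouse 4 (1.56-fold, log2 value 0.64 with SE 0.16, edgeR adjusted p = 0.0252). Its partners Timm8a1 (1.18-fold) and Timm8b (1.28-fold) did not pass, with edgeR adjusted p of 0.143 and 0.0753. Timm10, which forms hexamers with Timm9, was at 37.7, 37.4, 32.8 and 41.6 CPM against 49.6, 59.1, 47.8, 42.6 and 43.8 CPM. Its groups did not overlap (1.30-fold, SE of log2 0.11, edgeR adjusted p = 0.0327), whereas Timm9 reached 1.16-fold and missed the threshold (edgeR adjusted p = 0.14). Timm10b, which docks on TIM22, rose 1.34-fold (edgeR adjusted p = 0.0369). Whether partners of a hexamer differed from each other was not tested.

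The genes of oxidative folding and of TIM22, which respectively trap small cysteine-rich proteins and insert carriers such as Ucp1, gave no call. Gfer, the sulfhydryl oxidase, was at 21.1, 25.2, 20.3 and 27.4 CPM against 27.8, 28.4, 24.1, 24.3 and 30.3 CPM, with overlap (1.15-fold, edgeR adjusted p = 0.222). The receptor oxidase Chchd4 was at 41.5 ± 3.77 and 44.5 ± 3.98 CPM (edgeR adjusted p = 0.454). Timm22, the channel, was at 31.7, 32.2, 31.1 and 45.6 CPM in vehicle and 43.7, 44.9, 35.4, 38.3 and 41.0 CPM in cotadutide mice. Vehicle mouse 4 was above all 5 cotadutide values, and without it Timm22 passed at a log2 fold change of 0.36, against 0.21 with it (edgeR adjusted p = 0.237). Its partners Timm29 and Agk, an acylglycerol kinase, were at 0.98-fold and 1.04-fold (edgeR adjusted p = 0.82 and 0.691).

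Within TIM23, 3 of 5 genes rose. Timm50, the presequence receptor, was at 100.6, 103, 99.9 and 133 CPM in vehicle and 153, 204, 169.7, 144 and 156 CPM in cotadutide mice, without overlap (1.52-fold, log2 value 0.60 with SE 0.12, edgeR adjusted p = 0.0163). It lies on chromosome 7 from 28305516 to 28312072 on the minus strand in mm10. Timm21, which links the translocase to the respiratory chain, rose 1.22-fold without overlap (edgeR adjusted p = 0.0341). Timm23, the channel, was at 176 ± 13.2 and 195 ± 10.1 CPM (1.10-fold, edgeR adjusted p = 0.226). Its partner has a pair of forms. Timm17b was at 20.9, 26.0, 24.2 and 31.6 CPM against 36.3, 46.5, 36.1, 30.1 and 33.9 CPM (1.43-fold, edgeR adjusted p = 0.0305), overlapping through cotadutide mouse 4. Timm17a was at 152, 150.4, 146 and 163 CPM against 155, 178, 139.7, 145 and 173 CPM (1.04-fold, edgeR adjusted p = 0.727).

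Of the import motor PAM, which pulls precursors into the matrix, 4 of 6 genes rose. Dnajc15, a J-protein of the motor, was at 158, 166, 168 and 218 CPM in vehicle and 229.7, 352, 263, 240.3 and 268 CPM in cotadutide mice. The groups did not overlap (1.52-fold, log2 value 0.61 with SE 0.14, edgeR adjusted p = 0.0197). Timm44, the anchor of the motor, was at 124, 124, 125 and 140.5 CPM against 148, 177, 163, 150.7 and 157 CPM, also without overlap (1.24-fold, SE of log2 0.08, edgeR adjusted p = 0.0274). Grpel1, the nucleotide exchange factor, rose 1.39-fold and Pam16, which restrains the J-proteins, 1.37-fold (edgeR adjusted p = 0.0289 and 0.0464). Hspa9, the Hsp70 that does the pulling, was the most abundant member per kilobase of exon (307 CPM per kb in vehicle mice), followed by Dnajc15 (274) and Hspd1 (251). The exon length of Dnajc15 used there is 648 bases, whereas its principal transcript has 6193, so its rank depends on the length used. Hspa9 was at 1207 ± 37.0 and 1307 ± 82.0 CPM (1.08-fold, edgeR adjusted p = 0.345). The other J-protein, Dnajc19, was at 57.8, 63.1, 52.4 and 67.0 CPM against 68.8, 92.2, 64.0, 65.5 and 64.4 CPM (1.18-fold, edgeR adjusted p = 0.171).

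After import, the processing peptidase removes presequences. Pmpca, its substrate-binding subunit, was at 103, 95.7, 96.0 and 95.9 CPM in vehicle and 86.8, 92.9, 84.3, 99.5 and 95.7 CPM in cotadutide mice, with overlap (0.94-fold, edgeR adjusted p = 0.409). Pmpcb, the catalytic subunit, was at 270.5 ± 22.7 and 265 ± 13.5 CPM (0.98-fold, edgeR adjusted p = 0.84). Whether the peptidase genes differed from those of the translocase was not tested.

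The chaperonin gave the widest split. Hspe1, the lid that closes the folding chamber, was at 191, 231, 213 and 302 CPM in vehicle and 328, 497, 436, 289.7 and 387 CPM in cotadutide mice. It had the largest fold of the 38 (1.65-fold, log2 value 0.73 with SE 0.17, edgeR adjusted p = 0.0227), with cotadutide mouse 4 below vehicle mouse 4. Hspd1, the chamber itself, was at 668, 667, 649.6 and 668 CPM against 656, 726, 684, 715 and 693 CPM (1.05-fold, log2 value 0.07 with SE 0.08, edgeR adjusted p = 0.557). The genes stand back to back, Hspd1 on chromosome 1 from 55077835 to 55088243 and Hspe1 from 55088132 to 55091307, so that their spans overlap by 112 bases, with first exons on opposite strands. Without a stated strand setting, reads there cannot be told apart. The files also list pseudogenes named for Hspe1 (5), Hspd1 (4), Hspa9 (1) and Dnajc19 (1). Where such copies share sequence, the assignment of reads is uncertain. In all, 16 members share exon bases with another gene, among them 7 of the 18 that rose, and for Tomm6, Timm10b and Timm23 the other gene is on the same strand.

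**Figure D3:**
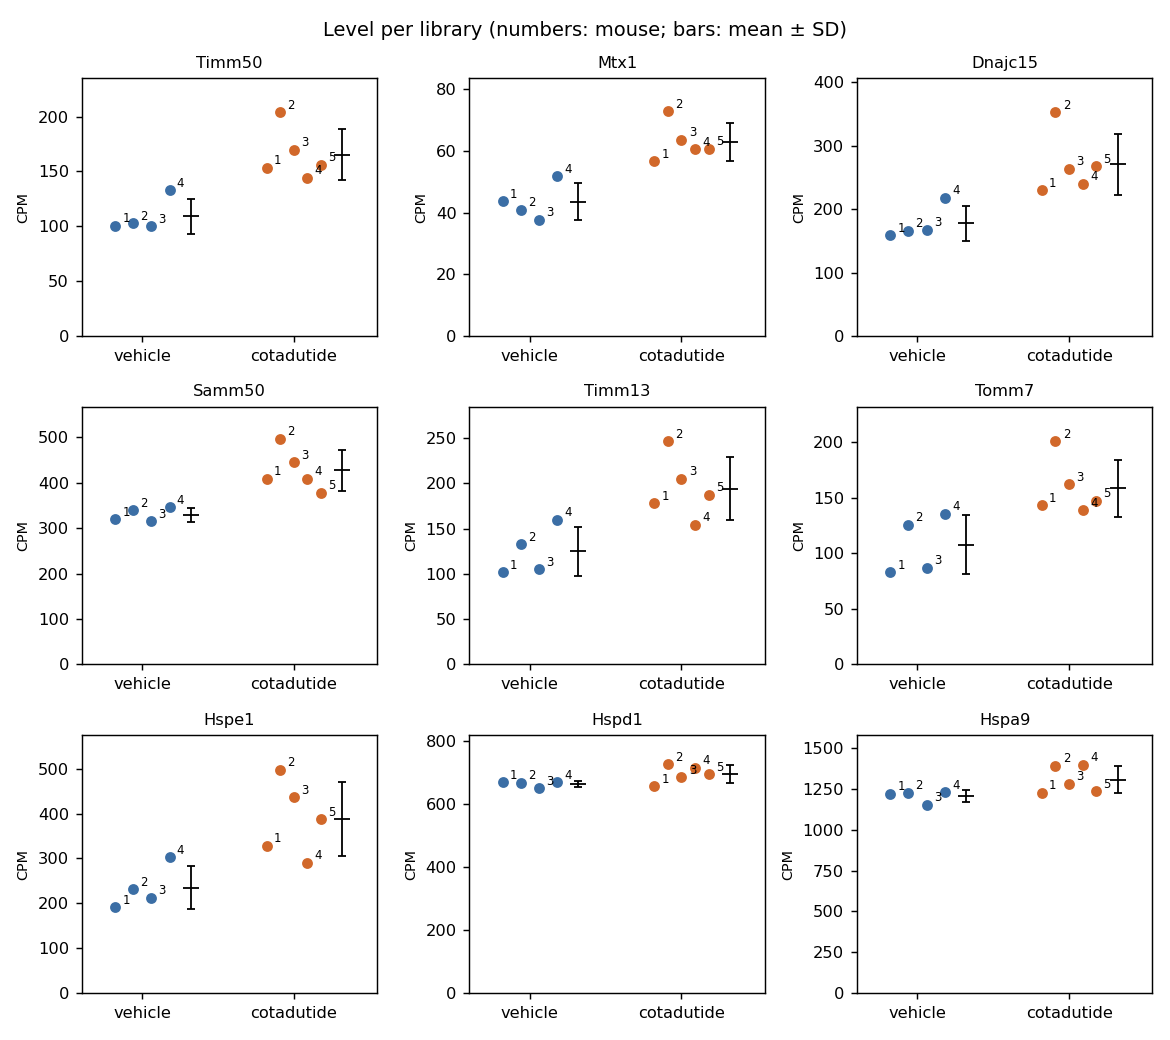
CPM of 9 members in each library, blue for vehicle and orange for cotadutide, with the mouse number beside each point and mean ± SD as black bars. Timm50, Mtx1, Dnajc15, Samm50 and Tomm7 show no overlap, while the groups overlap for Timm13, Hspe1, Hspd1 and Hspa9.

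Ratios of partner mRNAs within a library do not depend on its total, though they can on gene-specific corrections, and 4 were tested by exact two-sided permutation over the 126 splits of 9 libraries (smallest p 0.00794). The count of Hspd1 over that of Hspe1 was 3.49, 2.88, 3.05 and 2.21 in vehicle and 2.00, 1.46, 1.57, 2.47 and 1.79 in cotadutide mice. The mean log2 ratio fell by 0.65, beside SDs of 0.28 in vehicle (n = 4) and 0.30 in cotadutide mice (n = 5). The exact permutation p was 0.0317, or 0.0423 adjusted over the 4 ratios, and 1 cotadutide mouse lay above the lowest vehicle mouse. Timm17a over Timm17b was 7.28, 5.78, 6.03 and 5.15 in vehicle and 4.28, 3.82, 3.87, 4.82 and 5.11 in cotadutide mice, without overlap. Its log2 difference was -0.47 (exact permutation p = 0.0159, adjusted p = 0.0317). Dnajc15 over Dnajc19 was 2.74, 2.63, 3.20 and 3.26 against 3.34, 3.82, 4.12, 3.67 and 4.16, also without overlap. It was higher by 0.37 on the log2 scale (exact permutation p = 0.0159, adjusted p = 0.0317). Tomm40 over its paralogue Tomm40l went from 3.25, 3.30, 3.00 and 4.34 to 4.58, 4.42, 4.07, 3.82 and 3.98, and missed the threshold (log2 difference 0.28, adjusted exact permutation p = 0.0635). Without vehicle mouse 4 it passed at 0.39 (adjusted exact permutation p = 0.0179). The calls of the other 3 ratios were each lost when vehicle mouse 1, 2 or 3 or cotadutide mouse 1, 2, 3 or 5 was left out, at adjusted p of 0.0571 to 0.0762. With offsets for transcript length and GC content in each library, chosen after the data were seen, the sizes moved by over 1.5 times for all 4. The log2 difference became -0.42 for Hspd1 over Hspe1, -0.31 for Timm17a over Timm17b and 0.74 for Dnajc15 over Dnajc19, each at an adjusted exact permutation p of 0.0317. For Tomm40 over Tomm40l it became 0.05 (adjusted exact permutation p = 0.468). The offsets used the length of the principal transcript, which can differ from the exon length used for counting. For Dnajc15 these lengths were 6193 and 648 bases, and for Dnajc19 659 and 4027 bases. The value of 0.74 therefore depends on which length is used.

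**Figure D4:**
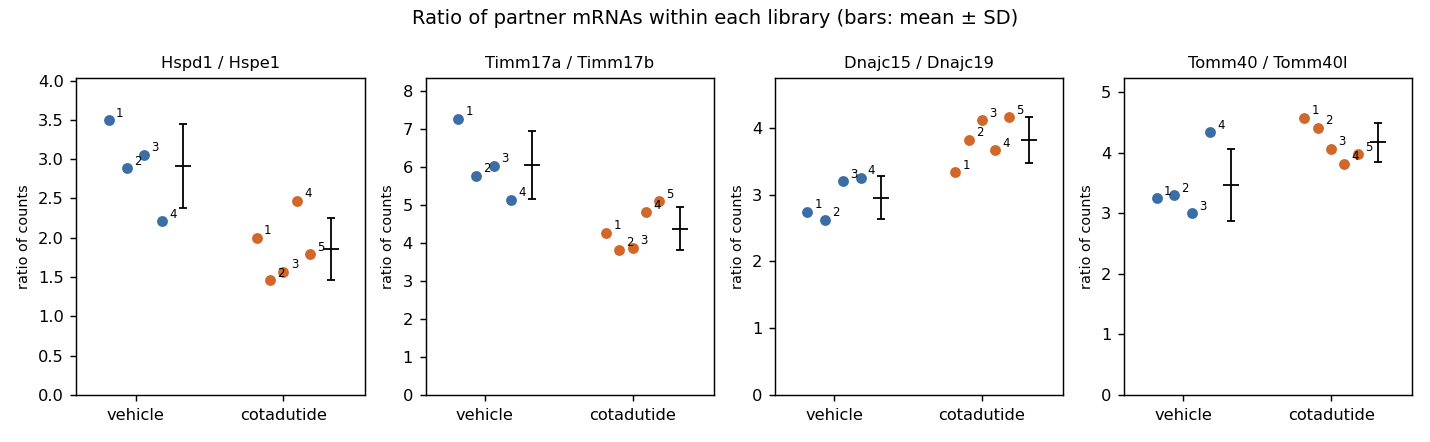
Ratio of the counts of 4 pairs of partner genes in each library, from 0, with mouse numbers and mean ± SD as black bars. Timm17a over Timm17b and Dnajc15 over Dnajc19 separate the groups; in the other two pairs the groups overlap.

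Larger fold changes went with shorter coding sequences. Over the 38 members the log2 fold change had a Spearman rho of -0.45 with coding length, -0.42 with transcript length and 0.35 with transcript GC content, as a description across genes that share 9 libraries. Over 13058 coding genes tested the same rho were -0.20, -0.26 and 0.17. Transcript lengths were those of the principal transcripts, which for Dnajc15 and Dnajc19 differ from the exon lengths used for counting. Of 16 members under 150 residues 9 rose (56.2%), with a background of 19.4% for all such coding genes, and of the 22 longer members 9 rose (40.9%), with a background of 8.84%. The fit was repeated with offsets for transcript length and GC content, an alternative chosen after the data were seen. Then 17 members rose. Of all 14747 genes tested, 1659 were higher and 1138 lower in that fit, against 1373 and 1378 without offsets. The median log2 fold change over all genes was 0.05, against 0.00 without offsets. Pam16 and Timm10 lost their call (log2 fold change 0.18 and 0.16, edgeR adjusted p = 0.0971 and 0.116), and Tomm40l gained one (0.33, adjusted p = 0.0302). The fold of Tomm5 also shrank but kept its call (0.31, edgeR adjusted p = 0.0418).

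**Figure D5:**
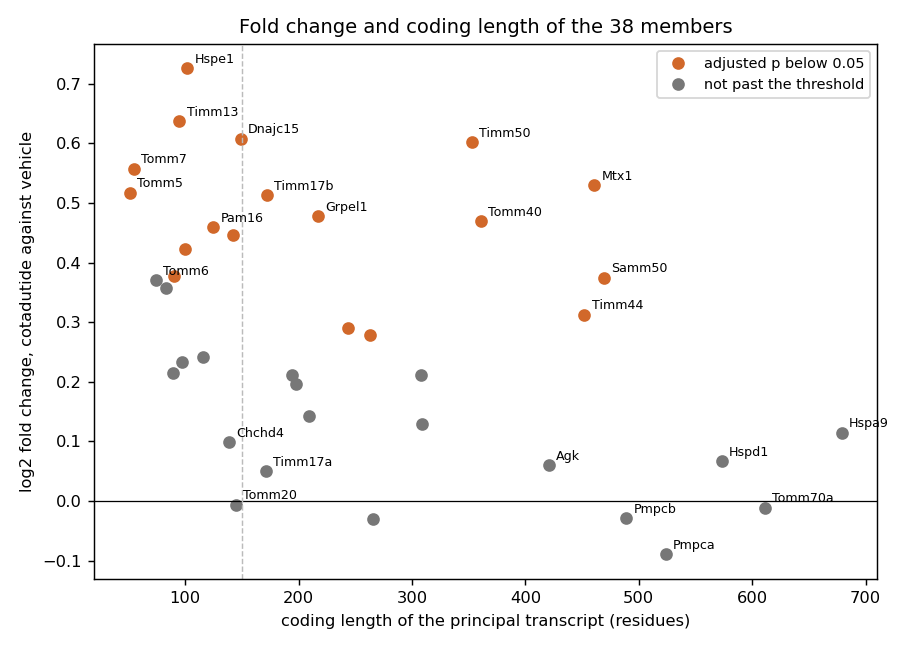
Log2 fold change against coding length in residues for the 38 members, orange where the adjusted p passed 0.05, with a dashed line at 150 residues. Long proteins such as Hspa9, Tomm70a, Hspd1 and the peptidase subunits sit near 0, while Mtx1, Samm50 and Timm44 are long and rose.

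Other genes of import and protein handling were taken from lists of 45 genes, of which 43 were tested, 7 rose (16.3%) and 0 fell. The background over all genes tested was 9.31% higher and 9.34% lower. By limma-voom (background 10.2% higher) and DESeq2 (1674 of 14747 genes higher) the counts were also 7 and 0. Clpx, the unfoldase of the Clp protease, rose 1.32-fold (122 ± 8.16 against 162 ± 7.79 CPM, edgeR adjusted p = 0.0156), and Clpp, its peptidase, 1.42-fold (edgeR adjusted p = 0.0188). Immp2l, an inner membrane peptidase, rose 1.43-fold (edgeR adjusted p = 0.0186), and these were 3 of 14 mitochondrial protease genes of several kinds. Of 8 tested further subunits 1 rose, Romo1 of the TIM23 complex (1.37-fold, edgeR adjusted p = 0.0444), and Aifm1, which binds Chchd4, was at 1.15-fold (edgeR adjusted p = 0.107). MICOS shapes the cristae and binds SAM, and 3 of its 7 subunits rose: Micos10, listed as Minos1 (1.57-fold, edgeR adjusted p = 0.0216), Micos13, listed as 2410015M20Rik (1.52-fold, 0.0254), and Chchd6 (1.37-fold, 0.0231). Matrix chaperones gave 0 of 4, with Dnlz, the escort of Hspa9, at 1.20-fold and Hscb at 1.23-fold (edgeR adjusted p = 0.101 and 0.122). Cytosolic chaperones gave 0 of 10 and a median log2 fold change of -0.09. Dnaja2 was at 142 ± 10.9 and 123 ± 12.9 CPM and Dnaja1 at 0.82-fold (edgeR adjusted p = 0.14 and 0.175). Without vehicle mouse 4, 11 of these genes rose and 3 fell, the Dnaja1, Dnajb1 and Spg7 genes, named after their values were seen. In that fit 2116 of all 14846 genes tested rose and 1588 fell. Of the listed genes 0 rose without vehicle mouse 1 or 2, 1 without vehicle mouse 3 and 4 without cotadutide mouse 3. Over all genes tested 47, 42, 265 and 546 rose in those fits, in the order given.

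For scale, 28 of 37 nuclear complex I subunits (75.7%, median log2 fold change 0.46) and 30 of 78 mitochondrial ribosomal protein genes (38.5%, median 0.33) rose in the same fit and 0 of either fell. The import genes, at 47.4% and 0.28, were not tested against them. Complex I subunits summed to 14420 to 17760 CPM in vehicle and 18100 to 25190 CPM in cotadutide mice.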

How the data were processed

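The authors deposited unnormalized read counts for each Ensembl gene, with each mouse in a separate table. Per the submitters' processing notes, mm10 was the build and the tools were featureCounts (Subread 1.5.2), STAR 2.5.2b, Trimmomatic 0.36 and bcl2fastq 2.17. Their settings, the strand handling and the annotation release were not given in the sources used here. RNA came from 30 mg of tissue, per the labels' protocols. Library totals were 16.1 to 25.1 M counts for vehicle and 10.8 to 19.5 M for cotadutide, and member counts per library ran from 63 to 31431. Each pair of libraries differed beyond counting noise (chi-square per degree of freedom at least 12.69).

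Symbols came from the supplied gene table, and 48970 of 49315 identifiers matched. Genes were filtered with filterByExpr, scaled by trimmed mean of M values and tested with edgeR 4.0.16 in R 4.3.3 (glmQLFit, robust, glmQLFTest, group as the only term, all 9 libraries). SE was the size of the log2 fold change over the square root of F. Partner ratios added 0.5 counts to both genes. Length and GC content were of the APPRIS principal transcript of GENCODE M21, and exon length was that in the files. Alternatives used limma 3.58.1, DESeq2 1.42.0, other scalings and filters, a muscle covariate, mouse numbers as a block and each mouse left out. The fits were tested on simulated data. Per-library values are given for called members with the 2 smallest p of their module, partner pairs and the leading gene of modules with no call; other pathway genes are the leading 2 of each list or those called. Members and lists were chosen with earlier results of these data known. Mice were separate animals with 1 library each. The letters of the NRF1 and YY1 motifs were altered once after results had been seen.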

Additional observations from a re-analysis of the deposited data

Results flagged for a closer look

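A library far from the others of its group was looked for with Dixon's ratio in 84 groups of 4 or 5 values (each member and each partner ratio in each treatment group), where chance alone flags about 1 in 20. It marked 14 values. Vehicle mouse 4 was the high value in 6 of them: Timm8a1 at 17.02 CPM (the others 12.8 to 13.4), Timm22 at 45.59 CPM (31.1 to 32.2), Timm50 at 132.9 CPM (99.9 to 103), Timm44 at 140.5 CPM (124 to 125), Pam16 at 69.3 CPM (46.1 to 49.4) and Dnajc15 at 218.2 CPM (158 to 168). Cotadutide mouse 2 was the high value in 4: Tomm22 at 166.6 CPM (the others 119 to 130.4), Timm9 at 52.89 CPM (39.8 to 42.1), Timm10b at 39.04 CPM (27.8 to 30.8) and Dnajc19 at 92.25 CPM (64.0 to 68.8). The chaperones Hspa9 and Hspd1 were lowest in vehicle mouse 3, at 1152 CPM (the others 1222 to 1229) and 649.6 CPM (667 to 668). Pmpca was highest in vehicle mouse 1 at 103.2 CPM (95.7 to 96.0), and Agk lowest in cotadutide mouse 5 at 13.99 CPM (16.1 to 16.9).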

How the results depend on the processing

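Of the members' calls, 38 of 38 kept their side of the threshold with DESeq2, limma-voom, upper quartile factors or a stricter filter (5 CPM in 4 libraries). The count of members higher was 15 with relative log expression factors, 14 without mitochondrially encoded genes and 13 without a filter. Over all genes tested, 1297 of 14747, 1165 of 14653 and 900 of 28583 were higher in these 3 fits. Tomm5 and Mtx2 missed the threshold in all 3 of these. With the muscle covariate 0 members, 0 other import genes and 0 of all 14747 genes tested were higher. The muscle score separated the groups fully, so that fit cannot tell muscle content and treatment apart. Leaving out 1 mouse at a time gave 0 to 21 members higher, 0 lower and a median log2 fold change of 0.21 to 0.35. It gave 0 to 11 other import genes higher and 0 to 3 lower. Over all genes tested, those fits called 42 to 2116 higher and 92 to 1724 lower. The log2 ratio differences then ran from -0.78 to -0.56 for Hspd1 over Hspe1, -0.54 to -0.38 for Timm17a over Timm17b, 0.32 to 0.42 for Dnajc15 over Dnajc19 and 0.21 to 0.39 for Tomm40 over Tomm40l; fewer libraries also raise the smallest p such tests can give. The causes were otherwise not tested. Mouse numbers recur in both groups, and the labels state no pairing of the animals by number. Correlations of same-numbered deviations ran from -0.05 to 0.13 over 4 numbers, and 1 of 4 vehicle mice correlated best with its own number. With the number as a replicate block 2 members (Mtx1 and Timm50) and 3 other import genes were higher, beside 516 of all 14747 genes tested. The paired log2 differences of the ratios were -0.53 (Timm17a over Timm17b), 0.34 (Dnajc15 over Dnajc19) and -0.65 (Hspd1 over Hspe1). Each was at an adjusted exact p of 0.25, where 4 pairs cannot go below 0.125. The lowest count of a member in a library was 63, for Tomm6, whose exons overlap other genes.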
